A study of Mus musculus with 6 samples.

Results

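The 77 genes described here encode proteins of the mitochondrial ribosome in blood stem and progenitor cells of mice. They were chosen by name from the 15845 genes of the count table: symbols of the form Mrpl (large subunit) or Mrps (small subunit) followed by a number and at most 1 letter, with at least 10 counts in each of the 6 libraries. All 77 entered the test across 13149 genes. Mrps34 lay just inside the count minimum, with 26 counts in its lowest library, and the next lowest minimum was 185 counts, in Mrps18c. Mrpl53 lay outside it with 0 to 5 counts per library, and only the RefSeq table, not the deposited one, gave its symbol. By protein, 26 of the genes belong to the small subunit and 50 to the large subunit, which includes Mrps18a and Mrps30 in spite of their symbols. The remaining gene, Mrps36, keeps its ribosomal symbol here, although its product is now known as a subunit of the 2-oxoglutarate dehydrogenase complex.

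The mitochondrial ribosome translates the few messenger RNAs encoded by mitochondrial DNA, which all specify subunits of the respiratory chain and ATP synthase. Its RNAs come from mitochondrial DNA, while all its proteins are encoded in the nucleus, made in the cytosol and imported. The small subunit reads the messenger RNA, and the large subunit joins the amino acids and sits against the inner membrane. Some of its proteins descend from bacterial ribosomal proteins (bacterial-type), and others were added during mitochondrial evolution (mitochondria-specific). Blood stem cells are known for low mitochondrial activity, which increases as they commit to a lineage.

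The cells were LSK cells of bone marrow, which lack lineage markers and carry Sca1 and c-Kit. All mice were C57BL/6 with the genotype Mx1Cre; Jak2VF/VF, so vehicle and treated groups alike were homozygous for the mutant Jak2 allele, an activated kinase that drives myeloproliferative neoplasms. Mx1Cre is driven by an interferon-responsive promoter that acts in blood cells and in several other tissues. One group of 3 received PBS as vehicle and the other group of 3 received TP-3654, an inhibitor of PIM kinases, at 150 mg/kg/day for 6 weeks. Neither the labels nor the design text state the ages of the mice. The 3 libraries of a group are biological replicates by the design text, and each p-value rests on the spread among them. The comparison asks how the drug alters expression in these mutant cells.

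Library totals ran from 20582057 to 25315596 counts, where 3 counts make 0.116 to 0.153 CPM. CPM stands here for reads of a gene relative to the library's total after TMM scaling, which sets all libraries on 1 scale. The third TP-3654 library stood apart from the rest. A chi-square of gene counts between library pairs, divided by its degrees of freedom, was 102 to 162 for the 5 pairs that include it and 17.4 to 58 for the other 10, so no pair agreed within sampling noise. The main results are therefore given with and without this library. The sort markers were present: Kit, which encodes c-Kit, was at 365 to 377 CPM with vehicle and 436 to 581 with TP-3654, and Ly6a, which encodes Sca1, at 40.0 to 69.2 and 60.5 to 68.3 CPM. Of the markers of mature cells, Cd3e (T cells) and Ms4a1 (B cells) were at most 0.0387 and 0.0450 CPM in any library, and Ly6g (neutrophils) at most 0.158 CPM. Others were present: the neutrophil gene S100a8 was at 39.0 CPM in the first vehicle library and 9.21 CPM in the second TP-3654 library, against 0.450 to 1.12 CPM in the other 4. Itgam (myeloid cells) was at 18.6 to 58.8 CPM, Cd79b (B cells) at 26.9 to 44.2 CPM and Nkg7 (cytotoxic cells) at 134 to 263 CPM. For the drug's targets, the log2 fold change (TP-3654 over vehicle) was 0.28 for Pim1, 1.198 for Pim2 and -0.08 for Pim3, with edgeR adjusted p = 0.479, 0.107 and 0.771. DESeq2 gave adjusted p of 0.510, 2.28e-04 and 0.788. Pim2 was at 32.0 to 46.1 CPM with vehicle and 71.0 to 130 CPM with TP-3654, and its adjusted p in the authors' deposited table is 0.224. Without the third TP-3654 library the log2 fold change of Pim2 was 1.32 (edgeR adjusted p = 0.144).

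The mitochondrial ribosomal protein genes as a whole took a smaller share of the counts in all 3 TP-3654 libraries than in the vehicle group. Vehicle libraries 1 to 3 gave 0.476%, 0.488% and 0.525% of their counts to the 77 genes, and TP-3654 libraries 1 to 3 gave 0.473%, 0.454% and 0.345%. The groups did not overlap, but the first TP-3654 library lay just under the first vehicle library, and the third lay far below all others. Summed over the 77 genes, the level was 4985 ± 349 CPM with vehicle and 4213 ± 507 CPM with TP-3654 (SD, n = 3 each). Bulk RNA cannot tell fewer cells of a type with high expression from less RNA of these genes per cell.

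Gene by gene the differences were small and mostly in the same direction. With all 6 libraries, 69 of the 77 genes (89.6%) had a log2 fold change below 0, against 47.9% of all tested genes. Their median log2 fold change was -0.244, with 50% of the genes between -0.349 and -0.144, while the median of all tested genes was 0.0145. In 34 of the 77 genes (44.2%) every TP-3654 library lay below every vehicle library, against 11.6% of all tested genes, and in 0 genes every TP-3654 library lay above, against 14.3%.

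No single gene of the set passed the false discovery rate of 0.05 (Benjamini-Hochberg over all tested genes). The edgeR quasi-likelihood test called 0 of the 77 genes, with a smallest adjusted p of 0.184, and 0 of all 13149 genes (0%). At an unadjusted p under 0.05 it gave 13 of the 77 genes (16.9%), all lower with TP-3654, against 6.84% of all genes in that direction. It gave 0 of the 77 in the higher direction, against 10.2% of all genes. DESeq2 also called 0 of the 77 (smallest adjusted p 0.0957) while calling 4.92% of all genes, and at an unadjusted p under 0.05 it gave 22 of the 77, all lower, against 8.41% (0 higher, against 9.94%). In the authors' deposited table, 4 of the 77 have an adjusted p under 0.05, all lower, against 2.48% of its genes in that direction, and 0 higher, against 2.85%. They are Mrpl33, Mrpl36, Mrpl44 and Mrpl38, with deposited log2 fold changes of -0.39, -0.30, -0.34 and -0.30 and deposited adjusted p of 0.0123, 0.0165, 0.0169 and 0.0412. Mrpl36 was chosen after its values were seen. The log2 fold change there is below 0 in 76 of the 77 genes (98.7%), against 52.7% of the genes in the authors' deposited table.

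**Figure D1:**
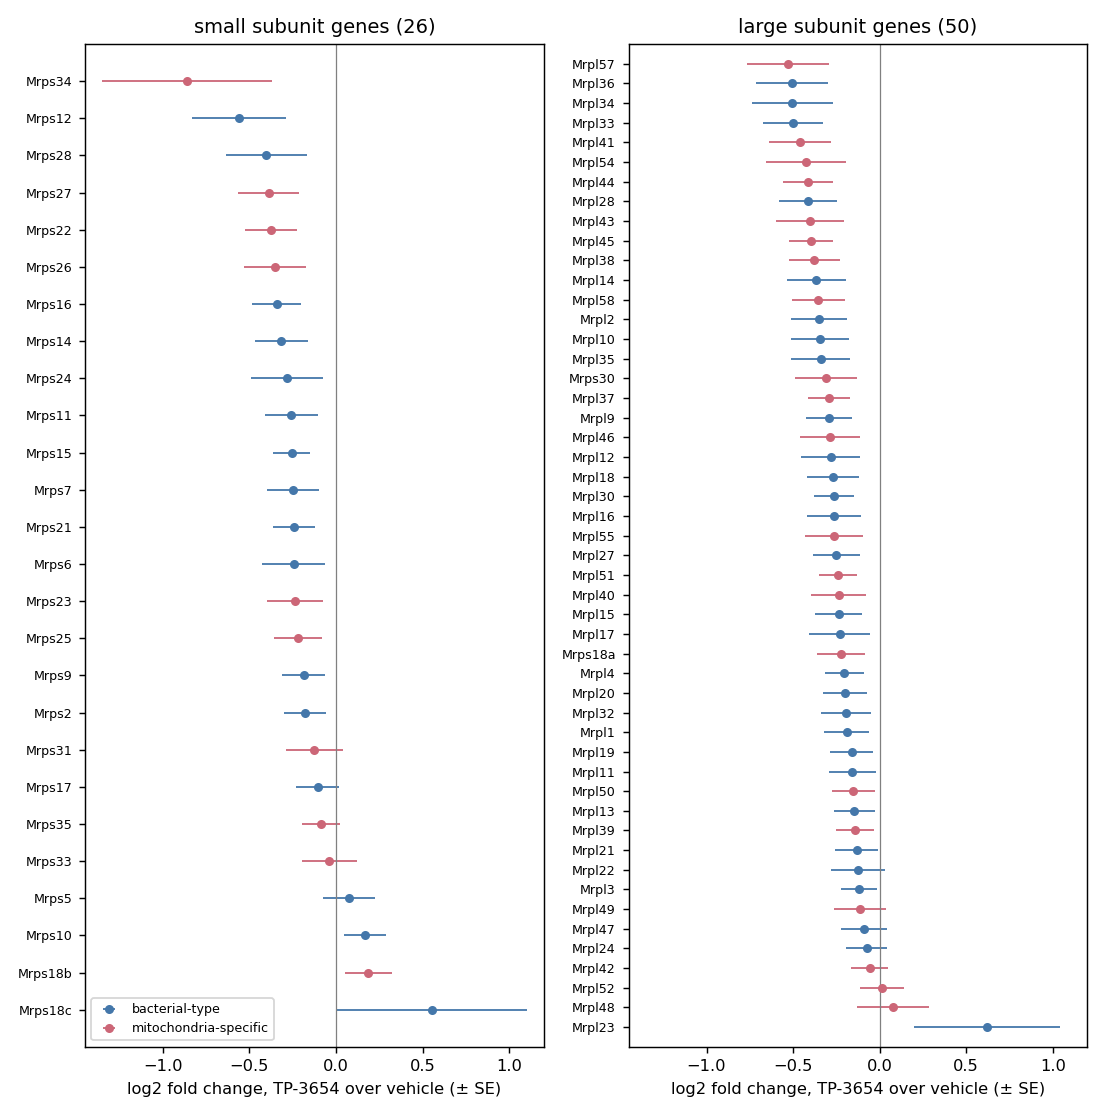
Log2 fold change (TP-3654 over vehicle, x axis) with its standard error for each small subunit gene (left, 26) and large subunit gene (right, 50), sorted by value and coloured by bacterial-type or mitochondria-specific protein. Most points lie left of 0, from -0.86 in Mrps34 to 0.62 in Mrpl23; Mrps36 is not drawn.

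The third TP-3654 library carried the largest differences. It was the lowest of the 6 libraries in 58 of the 77 genes (75.3%), against 32.3% of all genes, and the highest in 8 (10.4%), against 28.9%. Relative to the vehicle mean of each gene, the median log2 difference over the 77 genes was -0.13, -0.165 and -0.54 in TP-3654 libraries 1 to 3, and -0.0871, -0.000672 and 0.103 in vehicle libraries 1 to 3. The vehicle libraries thus differed among themselves as well: the third was the highest of all 6 in 52 of the 77 genes (67.5%), against 20.7% of all genes. Each TP-3654 library alone lay below all vehicle libraries in more of the set than of the transcriptome: 43 genes for the first (55.8% against 24.2%), 52 for the second (67.5% against 24.1%) and 62 for the third (80.5% against 37%).

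**Figure D2:**
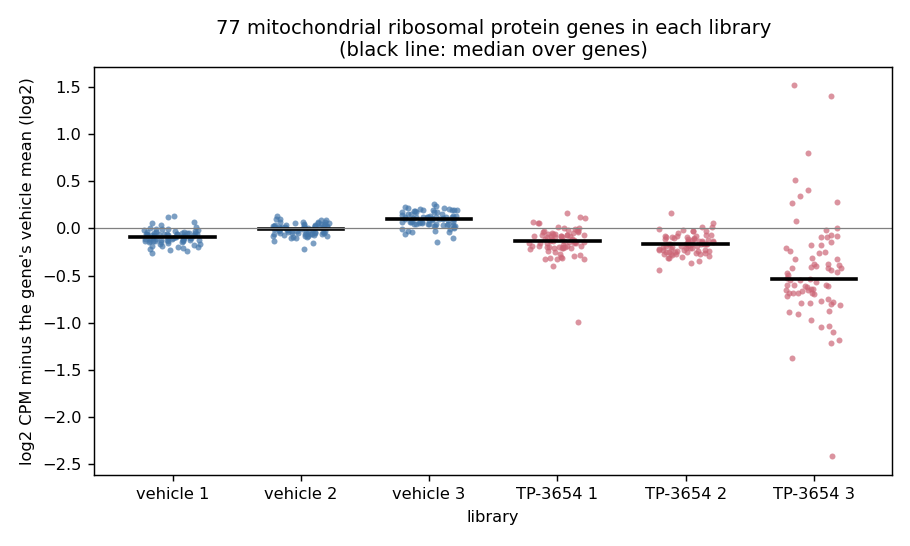
Log2 level of each of the 77 genes relative to its vehicle mean (y axis) in the 6 libraries (x axis), 1 point per gene with the median of each library as a bar. The medians fall at -0.0871, -0.000672 and 0.103 for vehicle and -0.13, -0.165 and -0.54 for TP-3654, and the third TP-3654 library has the widest spread.

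Without the third TP-3654 library the shift was smaller and more uniform. The fold change was below 0 in 73 of the 77 genes (94.8%, against 49.6% of all genes), and the median was -0.173 against 0.0018. The SD of the fold changes over the 77 genes was 0.217 with all libraries and 0.101 without this library. In 39 genes (50.6%) both remaining TP-3654 libraries lay below all vehicle libraries, against 14.4% of all genes, and in 0 genes both lay above, against 17.6%. The edgeR test then called 0 of the 77 (smallest adjusted p 0.239) and 0.232% of all genes. At an unadjusted p under 0.05 it gave 9 of the 77 lower, against 5.27%, and 0 higher, against 7.28%. DESeq2 without this library called 0 of the 77 and 3.31% of all genes, and it gave 10 of the 77 lower at an unadjusted p under 0.05, against 5.94%, and 0 higher, against 7.09%. In total 68 genes were below 0 in both edgeR fits, and 6 had an unadjusted p under 0.05 in both. The share of all genes that meets either condition in both fits was not computed, so these counts have no background. Mrps18b (0.05), Mrps10 (0.10), Mrpl49 (0.02) and Mrpl52 (0.04) had fold changes above 0 without this library, on the log2 scale. Mrpl49 and Mrpl52 were chosen after their values were seen.

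**Figure D3:**
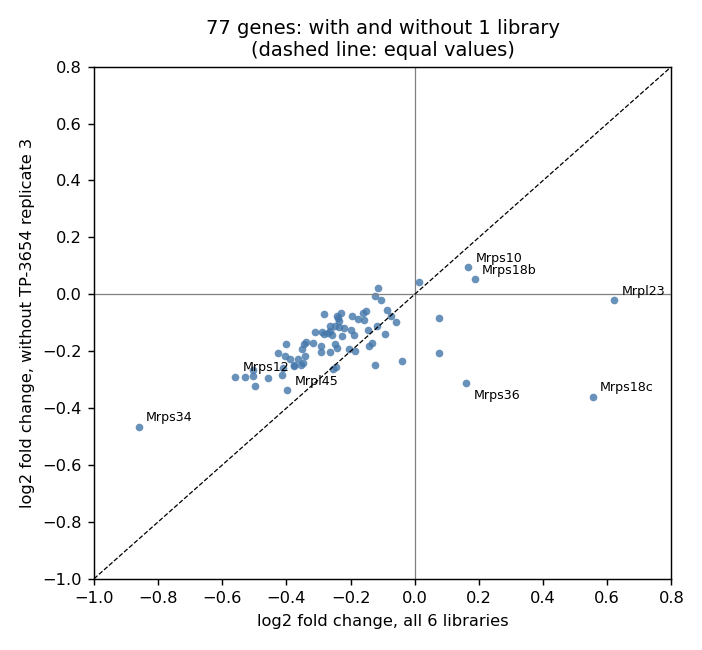
Log2 fold change with all 6 libraries (x axis) against that without the third TP-3654 library (y axis) for the 77 genes. Mrpl23, Mrps18c and Mrps36 stand at the right, above 0 with all libraries and below 0 without this library. Over all 77 genes, these 3 included, the SD was 0.101 along the y axis and 0.217 along the x axis.

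The large subunit genes with the smallest p were Mrpl45, Mrpl44, Mrpl33, Mrpl41 and Mrpl38, and all but Mrpl33 encode mitochondria-specific proteins. Both classes held further genes with an unadjusted edgeR p under 0.05. In total these were 4 of 29 bacterial-type and 6 of 21 mitochondria-specific large subunit genes, all lower, against 6.84% of all genes in that direction. Mrpl45 (Entrez gene 67036, chr11:97314923-97329920, GRCm38) encodes a protein at the exit of the peptide tunnel that holds the ribosome to the inner membrane. Its level was 66.8, 73.4 and 84.6 CPM in vehicle libraries 1 to 3 and 61.7, 57.8 and 51.1 CPM in TP-3654 libraries 1 to 3. The highest TP-3654 library lay below the lowest vehicle library. The means were 74.9 ± 8.96 and 56.9 ± 5.38 CPM (SD, n = 3), a log2 fold change of -0.40 (SE 0.13, edgeR adjusted p = 0.184), and -0.34 without the third TP-3654 library (edgeR adjusted p = 0.308).

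Mrpl44 (Entrez gene 69163, chr1:79776018-79781445) encodes a protein with a fold of the ribonuclease III family. It was at 71.9, 77.9 and 77.7 CPM with vehicle and 61.9, 63.6 and 45.2 CPM with TP-3654. The vehicle libraries were close together and the TP-3654 libraries all lay below them, with the third lowest. The log2 fold change was -0.41 (SE 0.14, edgeR adjusted p = 0.204), and -0.28 without the third TP-3654 library. Its locus overlaps Wdfy1 on the opposite strand, and reads of overlapping genes cannot be told apart here, because no source states the strand setting of the counting.

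Mrpl33 (Entrez gene 66845, chr5:31613951-31622644) encodes a small bacterial-type protein. It stood at 92.8, 89.7 and 99.5 CPM with vehicle and 74.8, 76.8 and 47.9 CPM with TP-3654. The groups were apart by over 10 CPM even without the third TP-3654 library, which was the lowest. Its log2 fold change was -0.50 (SE 0.17, edgeR adjusted p = 0.210), and -0.32 (SE 0.11, edgeR adjusted p = 0.239) without that library, where it had the smallest p of the set. Its locus overlaps Rbks on the opposite strand.

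Mrpl41 (Entrez gene 107733, chr2:24972470-24975098) and Mrpl38 (Entrez gene 60441, chr11:116131817-116138868) followed. Mrpl41 was at 47.7, 49.7 and 58.6 CPM with vehicle and 41.5, 44.0 and 28.0 CPM with TP-3654, and Mrpl38 at 76.0, 83.2 and 91.0 CPM with vehicle and 72.7, 68.5 and 51.3 CPM with TP-3654. Neither gene's groups overlapped, although the first TP-3654 library of Mrpl38 came close to the first vehicle library. The log2 fold changes were -0.46 (SE 0.18) and -0.38 (SE 0.15), both with an edgeR adjusted p of 0.252. Leaving out the third TP-3654 library gave -0.29 and -0.25. Of the 31-base words of Mrpl41 transcripts, 21.1% also occur at other loci, so part of its reads may be counted elsewhere.

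In the small subunit, the smallest p belonged to Mrps22 (Entrez gene 64655, chr9:98588730-98601679), which encodes a mitochondria-specific protein. The vehicle libraries were nearly equal at 38.3, 38.7 and 37.1 CPM, and the TP-3654 libraries were at 32.8, 31.4 and 23.7 CPM. All TP-3654 libraries lay below the vehicle range, whose SD was only 0.809 CPM. The log2 fold change was -0.38 (SE 0.15, edgeR adjusted p = 0.255), and -0.25 without the third TP-3654 library.

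Mrps12 (Entrez gene 24030, chr7:28739641-28741821) encodes the protein of the decoding centre whose bacterial counterpart is the site of streptomycin resistance. It was at 62.6, 62.0 and 66.4 CPM with vehicle and 51.3, 53.5 and 24.5 CPM with TP-3654. All TP-3654 libraries lay below the vehicle range, and the third was by far the lowest. The log2 fold change was -0.56 (SE 0.27, edgeR adjusted p = 0.337) with this library and -0.29 (SE 0.11, edgeR adjusted p = 0.311) without it.

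Mrps15 stands apart from these in the third library, and it was chosen after its values were seen. It was at 53.2, 53.0 and 56.0 CPM with vehicle and 47.2, 43.5 and 45.1 CPM with TP-3654. The 3 TP-3654 libraries were alike and all lay below the vehicle range. The log2 fold change was -0.26 (SE 0.11, edgeR adjusted p = 0.274), and -0.26 also without the third TP-3654 library. Mrps21, a small bacterial-type protein of the small subunit, had a like pattern, with 46.7, 45.9 and 55.8 CPM with vehicle and 42.6, 41.0 and 41.7 CPM with TP-3654. Its log2 fold change was -0.24 (edgeR adjusted p = 0.334) with all libraries and -0.25 without the third TP-3654 library.

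Mrps12 and Mrps21 had an unadjusted edgeR p of 0.0774 and 0.0748, and the genes described before them and Mrps15 had one under 0.05. The remaining genes with an unadjusted p under 0.05 were Mrpl58 and, chosen after their values were seen, Mrpl28, Mrps16, Mrpl37, Mrpl36 and Mrpl30. Mrpl58, a peptidyl-tRNA hydrolase built into the large subunit that can free stalled peptides, was at 35.3 to 42.8 CPM with vehicle and 24.7 to 32.9 CPM with TP-3654, a log2 fold change of -0.36 (edgeR adjusted p = 0.279), and -0.25 without the third TP-3654 library. Mrpl36 had the largest difference among them, from 100.4 to 112.8 CPM with vehicle to 50.03 to 88.9 CPM with TP-3654, and a log2 fold change of -0.50 (SE 0.21, edgeR adjusted p = 0.275), which was -0.29 without the third TP-3654 library. Mrpl30 and Mrpl37 had the smallest, at -0.26 and -0.29, and both had -0.20 without it.

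Fold changes were above 0 in 8 genes, and 5 of these were below 0 without the third TP-3654 library: Mrpl23, Mrps18c, Mrps36, Mrps5 and, chosen after its values were seen, Mrpl48. Mrpl23, a bacterial-type protein at the tunnel exit (Entrez gene 19935, chr7:142532467-142540747), was at 22.9, 26.3 and 29.6 CPM with vehicle and 26.2, 25.9 and 69.2 CPM with TP-3654. The first and second TP-3654 libraries lay inside the vehicle range, and the third lay far above every other library. The log2 fold change was 0.62 (SE 0.42, edgeR adjusted p = 0.475), and -0.02 without the third library. The most similar locus to Mrpl23 is its pseudogene Mrpl23-ps1, and 14.2% of its 31-base words occur at other loci.

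Mrps36 was at 11.15, 10.18 and 10.95 CPM with vehicle and 8.74, 8.71 and 18.7 CPM with TP-3654. The first and second TP-3654 libraries lay below the vehicle range and the third above it. Its log2 fold change was 0.16 (SE 0.30, edgeR adjusted p = 0.796) with the third library and -0.31 without it. It shares 21% of its 31-base words with other loci, among them the pseudogene Mrps36-ps1. Mrps5, whose product belongs to the body of the small subunit, was at 58.8, 69.8 and 63.3 CPM with vehicle and 66.3, 55.2 and 80.8 CPM with TP-3654. Its groups overlapped, and the log2 fold change was 0.08 with all libraries and -0.08 without the third. Mrps10 was at 41.4, 45.6 and 49.4 CPM with vehicle and 50.8, 47.1 and 55.2 CPM with TP-3654. Its groups overlapped too, with the highest level in the third TP-3654 library, and the log2 fold change of 0.17 (SE 0.12, edgeR adjusted p = 0.491) was 0.10 without it.

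The genes Mrps18a, Mrps18b and Mrps18c encode relatives of the bacterial protein S18, of which the first sits in the large subunit. In the classes used here only Mrps18c counts as bacterial-type, while Mrps18a and Mrps18b count as mitochondria-specific. Mrps18a was at 53.0, 58.4 and 68.2 CPM with vehicle and 55.8, 53.3 and 44.5 CPM with TP-3654. Mrps18b was at 48.7, 54.0 and 58.5 CPM with vehicle and 58.2, 54.1 and 71.2 CPM with TP-3654. Mrps18c was lower than both at 11.03, 8.69 and 10.81 CPM with vehicle and 8.56, 7.43 and 29.0 CPM with TP-3654. In all 3 genes the groups overlapped, and the third TP-3654 library was the lowest of the 6 for Mrps18a and the highest for Mrps18b and Mrps18c. The log2 fold changes were -0.23, 0.19 and 0.56 (SE 0.14, 0.14 and 0.55), with edgeR adjusted p of 0.420, 0.487 and 0.612. With that library left out they were -0.15, 0.05 and -0.36. Mrps18b and Mrps18c share 31.6% and 34.5% of their 31-base words with other loci, and Mrps18a shares 0.2%.

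Mrpl12 and Mrps30, named for their roles in the large subunit, had overlapping or nearly overlapping groups. Mrpl12 encodes the stalk protein that recruits translation factors. It was at 161.8, 194.3 and 222.7 CPM with vehicle and 177.4, 175.7 and 122.7 CPM with TP-3654, so that the first and second TP-3654 libraries lay inside the vehicle range. Its log2 fold change was -0.28 (SE 0.17, edgeR adjusted p = 0.417), and -0.14 without the third library. Mrps30, a mitochondria-specific protein of the large subunit, was at 64.4, 65.1 and 73.6 CPM with vehicle and 62.6, 61.8 and 39.3 CPM with TP-3654. All TP-3654 libraries lay below the vehicle range, the first by under 2 CPM, and the log2 fold change of -0.31 (SE 0.18, edgeR adjusted p = 0.390) was -0.13 without the third.

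Mrps34, the gene with the lowest counts, had the most negative log2 fold change at -0.86 (SE 0.49, edgeR adjusted p = 0.396). It was at 7.76, 7.16 and 6.42 CPM with vehicle and 3.56, 6.77 and 1.33 CPM with TP-3654. The second TP-3654 library lay inside the vehicle range and the third far below it. Without the third library the log2 fold change was -0.47. Of its 31-base words 73.8% occur at other loci, and its locus overlaps Mapk8ip3 on the opposite strand and Nme3 on the same strand, so its counts are uncertain.

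The small and large subunits had like medians, as did bacterial-type and mitochondria-specific proteins. The 26 small subunit genes had a median log2 fold change of -0.244 with 22 below 0, and the 50 large subunit genes had -0.256 with 47 below 0. Groups did not overlap, with TP-3654 lower, in 9 small subunit genes (34.6%) and 25 large subunit genes (50%), against 11.6% of all genes. The 45 genes of bacterial-type proteins had a median of -0.244 with 41 below 0, and the 31 genes of mitochondria-specific proteins had -0.263 with 28 below 0. Without the third TP-3654 library the medians were -0.158 and -0.171 for the small and large subunit, and -0.143 and -0.188 for bacterial-type and mitochondria-specific proteins. The difference between these classes was not tested. In the 38 genes with at most 10% shared 31-base words and no overlapping coding gene, the median was -0.247 with 36 below 0. This subset was added after the data were examined.

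Levels within the set spanned a moderate range. The vehicle mean ran from 7.11 to 193 CPM with a median of 63.9 CPM, and 73 of the 77 genes lay between 20 and 120 CPM. Per kilobase of transcript, the highest genes by the mean over all 6 libraries were Mrpl33, Mrpl12 and Mrps21, with vehicle levels of 197 ± 10.5, 147 ± 23.1 and 122 ± 13.6 CPM/kb (SD, n = 3). With TP-3654 these levels were 139 ± 33.7, 121 ± 23.6 and 103 ± 1.998 CPM/kb. The lowest vehicle levels per kilobase were those of Mrps34 at 7.75 ± 0.735, Mrpl47 at 7.90 ± 0.291 and Mrpl1 at 8.42 ± 0.538 CPM/kb. With TP-3654 they were 4.24 ± 2.98, 7.41 ± 0.701 and 7.37 ± 0.516 CPM/kb. In vehicle, each pair of the 3 genes at the bottom of this order differed by no more than the larger SD of the pair. Mrpl33 lay above Mrpl12 by more than either SD. Mrpl1, which forms the mobile stalk at the exit of spent tRNA, had non-overlapping groups and a log2 fold change of -0.19, and Mrpl47 had overlapping groups and -0.09. Lengths come from 1 annotated transcript per gene, and the order depends on that choice.

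The genes lie on 17 chromosomes, with 11 on chromosome 11 and 8 on chromosome 17, and 25 of them overlap another coding gene. Mrps11 and Mrpl46 start 42 bases apart on chromosome 7 and run in opposite directions, at positions 78783131 and 78783089 of GRCm38, and were chosen for that arrangement after the data were examined. Mrps11 was at 34.7, 37.6 and 40.9 CPM with vehicle and 36.1, 32.8 and 25.8 CPM with TP-3654. Mrpl46 was at 40.3, 42.1 and 48.4 CPM with vehicle and 41.9, 38.2 and 27.0 CPM with TP-3654. In both genes the first TP-3654 library lay inside the vehicle range, with the second and the third below it. Their log2 fold changes were -0.26 (SE 0.15, edgeR adjusted p = 0.407) and -0.29 (SE 0.17, edgeR adjusted p = 0.411), and -0.14 and -0.13 without the third. Mrpl43, also chosen after its values were seen, was at 35.03 to 41.1 CPM with vehicle and 20.4 to 35.6 CPM with TP-3654, and it overlaps Twnk on the opposite strand. Twnk encodes the helicase of mitochondrial DNA. Its log2 fold change was 0.17 while that of Mrpl43 was -0.40, and without the third TP-3654 library these were 0.19 and -0.22; 38.5% of the 31-base words of Mrpl43 also occur elsewhere.

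Genes for mitochondrial ribosomal proteins are known for promoters without a TATA box that bind factors such as GABP, YY1 and NRF1. Promoters of 68 of the 77 genes were found in a RefSeq table of GRCm38.p6, each covering 250 bases before to 50 bases after the start. The GABP-type motif CCGGAAG (or CTTCCGG on the other strand) occurred in 24 of them (35.3%), against 18.6% of the promoters of 10475 tested genes and 9.23% of all 27025 promoters in the table. The YY1-type motif AAGATGGC (or GCCATCTT) occurred in 12 (17.6%), against 4.72% and 2.88%. The core of the NRF1 motif, GCATGCGC (or GCGCATGC), occurred in 8 (11.8%), against 5.37% and 2.83%. The full NRF1 palindrome, which contains the core, occurred in 3 (4.41%), against 2.07% and 0.984%. The E-box CACGTG, to which MYC binds, occurred in 5 (7.35%), against 10.1% and 7.2%, and the SP1-type motif GGGCGG (or CCGCCC) in 33 (48.5%), against 63.6% and 36.1%. The median GC content of these promoters was 58.0%, against 60.7% for tested genes.

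The promoters of Mrpl33, Mrps22 and Mrps12 are shown because these genes had non-overlapping groups and carry the GABP-type motif, and that of Mrps11 because it carries the YY1-type motif and its gene has a close divergent neighbour. Each runs 5′ to 3′ on the gene's strand from 200 bases before the start to 20 bases from it, in lower case, and capitals mark GABP-, YY1- and NRF1-core matches. The windows are chr5:31613751-31613970 (plus strand), chr9:98601660-98601879 (minus strand), chr7:28741802-28742021 (minus strand) and chr7:78782931-78783150 (plus strand) of GRCm38.p6, from RefSeq.
Mrpl33: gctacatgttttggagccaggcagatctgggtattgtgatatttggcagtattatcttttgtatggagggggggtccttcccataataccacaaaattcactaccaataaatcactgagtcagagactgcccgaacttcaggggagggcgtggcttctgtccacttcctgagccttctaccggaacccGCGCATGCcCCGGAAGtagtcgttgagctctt
Mrps22: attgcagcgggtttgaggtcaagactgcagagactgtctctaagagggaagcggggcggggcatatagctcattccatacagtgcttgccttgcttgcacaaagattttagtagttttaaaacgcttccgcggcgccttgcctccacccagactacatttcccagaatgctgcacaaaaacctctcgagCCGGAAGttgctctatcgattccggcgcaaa
Mrps12: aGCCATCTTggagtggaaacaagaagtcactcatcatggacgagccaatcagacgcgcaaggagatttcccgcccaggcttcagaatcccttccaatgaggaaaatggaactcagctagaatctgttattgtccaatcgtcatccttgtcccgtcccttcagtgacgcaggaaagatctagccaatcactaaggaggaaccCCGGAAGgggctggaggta
Mrps11: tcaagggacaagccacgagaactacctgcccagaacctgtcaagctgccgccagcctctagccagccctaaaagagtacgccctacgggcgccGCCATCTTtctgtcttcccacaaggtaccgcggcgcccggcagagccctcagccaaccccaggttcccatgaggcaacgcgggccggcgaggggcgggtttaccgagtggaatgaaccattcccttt
The NRF1 core of Mrpl33 begins 12 bases before the start, and its GABP-type motif begins 3 bases before the start and spans it. The GABP-type motif begins 11 bases before the start in Mrps22 and 1 base after it in Mrps12. The YY1-type motif of Mrps11 begins 107 bases before the start, which is inside Mrpl46. A match is a description of the letters, not evidence of binding. The median log2 fold change was -0.243 in the 24 genes with the GABP-type motif and -0.252 in the 44 without it. For the YY1-type motif the medians were -0.271 and -0.242, and for the NRF1 core -0.213 and -0.249, with and without a match. With the third TP-3654 library left out, the medians with and without a match were -0.212 and -0.136 for GABP, -0.144 and -0.174 for YY1 and -0.179 and -0.157 for the NRF1 core. The order turned for all 3 motifs, and the differences were not tested.

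Other genes of mitochondrial protein synthesis did not all share the direction of the ribosomal proteins. The 5 subunits of the mitochondrial ribosome that carry other symbols had a median log2 fold change of -0.297, with 4 below 0. In 4 (80%) the groups did not overlap with TP-3654 lower, against 11.6% of all genes. An unadjusted p under 0.05 occurred in 1 gene, also lower, against 6.84% of all genes in that direction. That gene was Gadd45gip1, a large subunit protein, at 32.5, 33.5 and 42.7 CPM with vehicle and 27.7, 29.5 and 15.6 CPM with TP-3654 (log2 fold change -0.58, SE 0.24, edgeR adjusted p = 0.269). Dap3 and Aurkaip1, both of the small subunit, had log2 fold changes of -0.23 and -0.38. With the third TP-3654 library left out the 5 genes had a median of -0.205, and these 3 had -0.35, -0.23 and -0.21.

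The 13 tested translation factors of 14 listed had a median of -0.107 with 9 below 0, where 47.9% of all genes lay below 0. An unadjusted p under 0.05 occurred in 0 of them, against 17.1% of all genes in either direction. Examples were Tsfm, the elongation factor Ts, at -0.35, Oxa1l, the insertase at the membrane, at -0.18, and Guf1, a factor for stalled ribosomes, at 0.25. Leaving out the third TP-3654 library gave a list median of -0.0518, also with 9 below 0, and -0.19, -0.14 and 0.13 for these genes. Among 25 assembly factors 18 lay below 0 with a median of -0.0864. An unadjusted p under 0.05 occurred in 0 of these factors, against 17.1% of all genes. In these, 7 (28%) had non-overlapping groups in the lower direction, against 11.6% of all genes, and 2 in the higher one, against 14.3%. Malsu1, Noa1 and Ddx28, which act on the large subunit or on the assembly of the ribosome, had -0.36, -0.24 and -0.33. Leaving out that library gave a list median of -0.0387 with 14 of 25 below 0, and -0.23, -0.13 and -0.13 for these genes.

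The 17 mitochondrial aminoacyl-tRNA synthetases, which charge the tRNAs, had a median of 0.0229 with 7 below 0, and -0.0134 with 10 below 0 without the third TP-3654 library. With all libraries 2 had an unadjusted p under 0.05, both lower, against 6.84% of all genes in that direction. Groups did not overlap in 4 (23.5%), all lower, against 11.6% of all genes. Fars2, which charges the tRNA for phenylalanine, had a log2 fold change of -0.43 (edgeR adjusted p = 0.203), and -0.36 without that library. Lars2 gave -2.61 (SE 1.06, edgeR adjusted p = 0.313), with 102.9, 205.4 and 1212 CPM with vehicle and 83.1, 75.05 and 90.4 CPM with TP-3654. The third vehicle library lay far above all the others, and the TP-3654 libraries lay below the vehicle range. The 18 genes for transcription and handling of mitochondrial RNA had a median of 0.0127 with 9 below 0. Among them were Fastkd3 at 0.23, Tfb2m at 0.24 and Twnk. An unadjusted p under 0.05 occurred in 0 of the 18, against 17.1% of all genes in either direction. Without the third TP-3654 library the median was 0.00405, again with 9 below 0, and Fastkd3 and Tfb2m had 0.23 and 0.03.

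Of the nuclear-encoded respiratory chain subunits, which assemble with the products of the mitochondrial ribosome, 63 of 73 tested lay below 0, with a median of -0.237. In 36 of them (49.3%) the groups did not overlap with TP-3654 lower, against 11.6% of all genes. In that direction 18 had an unadjusted p under 0.05, against 6.84% of all genes. Only 1 of the 73 passed in DESeq2, against 4.92% of all genes. Without the third TP-3654 library their median was -0.196 with all 73 below 0. The proteins of the cytosolic ribosome went another way with all libraries and the same way without the third TP-3654 library: of 78 tested genes 16 and then 75 lay below 0, with medians of 0.503 and -0.127. Their summed level was 43180 to 51670 CPM with vehicle and 41820 to 89500 CPM with TP-3654. The upper end was the third TP-3654 library, and the part of this in the values of the mitochondrial genes was not tested.

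**Figure D4:**
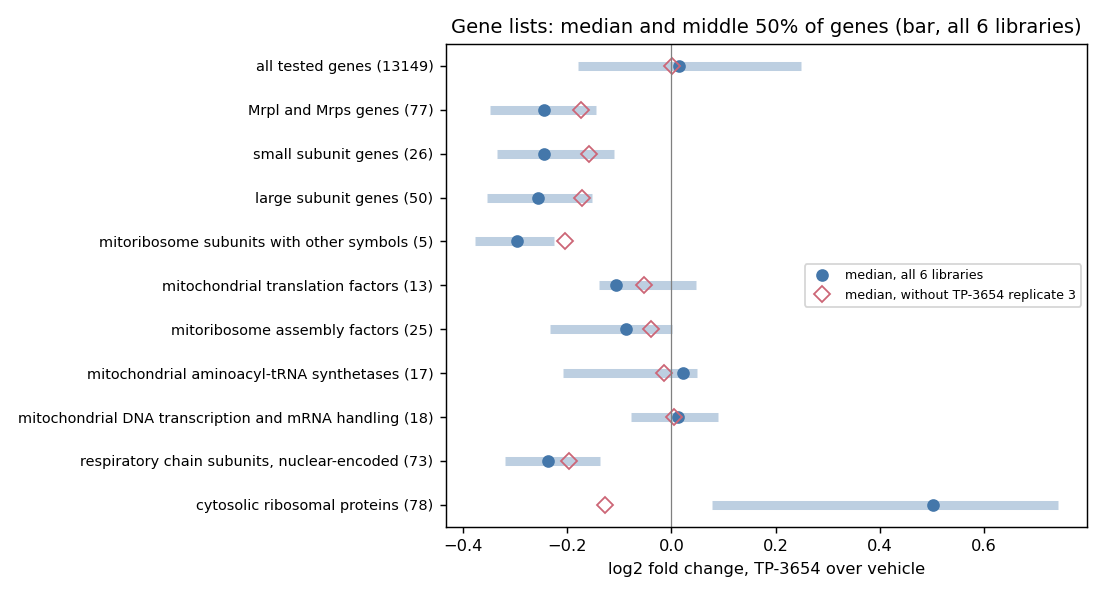
Median log2 fold change (x axis) of the mitochondrial ribosomal protein genes, of the other gene lists and of all tested genes, with a bar for the middle 50% of the genes, and an open marker for the median without the third TP-3654 library. The mitochondrial ribosomal proteins (-0.244) and the respiratory chain subunits (-0.237) lie close together, and the cytosolic ribosomal proteins move from 0.503 to -0.127 without this library.

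Some markers of progenitor subsets and of cell division had summed levels that did not overlap between the groups, alongside the ribosomal genes. Of 14 genes of granulocyte-monocyte progenitors 13 lay below 0. In that direction 10 had an unadjusted p under 0.05, against 6.84% of all genes. In DESeq2 5 of the 14 passed, against 4.92% of all genes. Their summed level was 10900 to 14310 CPM with vehicle and 2853 to 8094 CPM with TP-3654. All 16 mitosis genes lay below 0, 8 with an unadjusted p under 0.05, against 6.84% of all genes in that direction. Their summed level was 3461 to 3666 CPM with vehicle and 2432 to 3335 CPM with TP-3654. The 12 stem cell genes were at 328.9 to 399.5 CPM with vehicle and 522.8 to 565.7 CPM with TP-3654, 9 of them above 0. Megakaryocyte genes summed to 453.1 to 465.1 CPM with vehicle and 505.6 to 599.5 CPM with TP-3654. Sums of mast cell and basophil genes (629.2 to 702.6 and 292.4 to 678.9 CPM), T and NK cell genes (238.1 to 286.5 and 158.9 to 240.2 CPM), erythroid genes (740.8 to 1738 and 880.8 to 1930 CPM), mature neutrophil and monocyte genes (138.5 to 384.1 and 99.01 to 187.4 CPM), B cell genes (30.66 to 46.19 and 30.58 to 32.76 CPM) and stromal genes (219.7 to 243.5 and 221.2 to 306.5 CPM) overlapped between the groups. The part of any of these in the values of the ribosomal genes was not tested.

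The level of the mitochondrial ribosomal protein genes in the third TP-3654 library, relative to the mean of the first and second, differed with the number of exons of their transcripts. The median log2 difference was -0.602 in 19 genes with 1 to 3 exons (18 lower), -0.48 in 17 genes with 4 exons (16 lower), -0.36 in 18 genes with 5 to 6 exons (15 lower) and -0.0655 in 23 genes with 7 or more exons (14 lower). Over all tested genes the same classes had medians of -0.275, -0.157, -0.146 and 0.0445. Spearman's rho between this difference and exon number was 0.56 across the 77 genes and 0.36 across 13071 genes; genes are not independent replicates, and all points share these 3 libraries. The 77 genes have shorter transcripts than the rest, with a median of 1280 against 2779 bases and 5 against 8 exons, and their GC content is 50.5% against 50.4%. Across the 77 genes rho between the log2 fold change and exon number was 0.40 with all libraries and 0.12 without the third TP-3654 library. The most negative differences of that library were those of Mrps34 at -1.89 and Mrps12 at -1.10, with 3 exons each. This pattern was noticed in the data, and its cause was not tested.

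**Figure D5:**
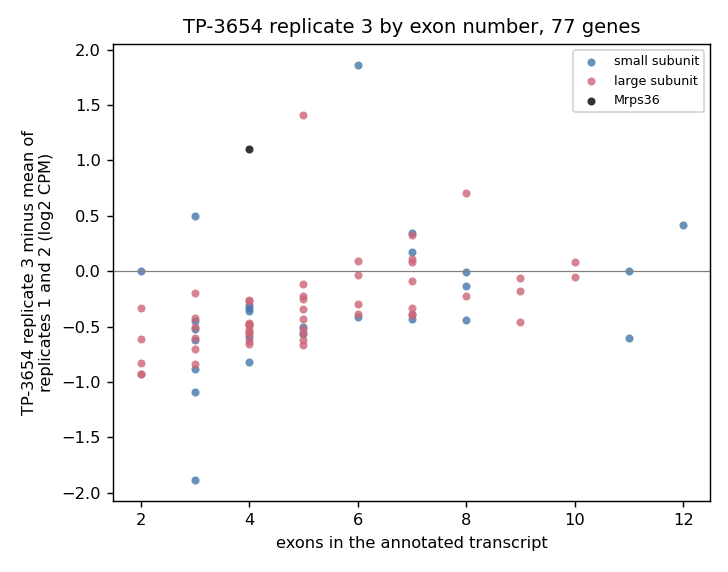
Log2 difference between the third TP-3654 library and the mean of the first and second (y axis) against the number of exons of the transcript (x axis) for the 77 genes. Genes with 1 to 3 exons have a median of -0.602 and those with 7 or more a median of -0.0655.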

How the data were processed

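The authors deposited raw read counts per Entrez gene for 6 libraries. Their own comparison, also deposited, holds, per the file headers, signal values (means of normalized counts), log2 fold changes with standard errors, a Wald score, and raw and adjusted p-values. The submitters' processing notes name the build mm10 (GRCm38), the aligner HISAT2 2.1.0, SAMtools 1.9.0 and DESeq2. What counted the reads, on which annotation and with which strand setting is not given in the sources used here. Per the labels' protocols, libraries were made from poly(A) RNA.

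Counts were fitted with edgeR 4.0.16 in R 4.3.3 (TMM, filterByExpr, robust quasi-likelihood, Benjamini-Hochberg over 13149 genes), treatment being the only term. CPM are TMM-scaled, and the SE was derived from the fold change and F. Other fits used DESeq2 1.42.0, limma-voom 3.58.1, other scalings and filters, a replicate block and each library left out. The scripts were tested on simulated counts. Symbols came from the deposited table and RefSeq (15839 of 15845 genes), and exons, lengths and shared 31-base words from a GENCODE annotation of GRCm38. The 77 genes and all lists were chosen with earlier results of these data known. The genes named were the 6 with the smallest p per direction, the 3 highest and 3 lowest per transcript length, the S18 relatives, Mrpl12, Mrpl58, Mrps30 and Mrps12 for their roles, those nearest the count minimum, up to 3 genes by smallest p per related list, the sort markers and the PIM genes; 1 gene under this rule is not reported here.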

Additional observations from a re-analysis of the deposited data

How the results depend on the processing

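Of 336 values of the 21 named genes under 16 alternatives, 328 kept their direction and their side of the false discovery rate of 0.05, and 8 reversed. Without the third TP-3654 library the reversed log2 fold changes were -0.0219 for Mrpl23, -0.36 for Mrps18c, -0.312 for Mrps36 and -0.0845 for Mrps5, and with DESeq2 on those libraries -0.0254, -0.365, -0.316 and -0.0887. These were the lowest values with 1 library left out, and the highest, without the second TP-3654 library, were 0.861, 0.882, 0.349 and 0.201. The count of genes called out of the 77 was 0 under every alternative, and the median log2 fold change stayed between -0.329 (without the first TP-3654 library) and -0.173 (without the third). The count with an unadjusted p under 0.05 was 13, against 4 with library totals as the only scaling, 22 with DESeq2 and 8 in the genes with little shared sequence, which are fewer genes. Leaving out 1 library gave 2 to 20 (5 without the second and 2 without the third vehicle library, 20 without the first TP-3654 library). The share of all genes at this threshold was computed only for the main fit, for DESeq2 and for the fits without the third TP-3654 library. In the other fits a change in the count cannot be told from a change over all genes. Over all genes 0 were called, against 5 with no filter on low counts and 657 with DESeq2, 443 with DESeq2 without the third TP-3654 library, and 0 to 31 with 1 library left out (7, 18 and 31 without the first, the second and the third TP-3654 library). A replicate block called 3 genes of all and gave 10 of the 77 with an unadjusted p under 0.05. In deviations from the group means, same-numbered libraries had correlations of -0.0117, -0.015 and 0.031, and differently numbered ones -0.0405 to 0.0531. These values gave no sign of pairing by replicate number, but with 3 libraries per group they cannot exclude it. Apart from the fewer genes or libraries that some alternatives use, the cause was not tested. Depth limits Mrps34 the most, with 26 counts in 1 library.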

Other observations

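The fold changes in the authors' deposited table were closer to a fit without the third TP-3654 library than to the fit on all 6. Across 9573 genes with a deposited mean above 200, the deposited fold changes had a Pearson r of 0.585 with DESeq2 on all 6 libraries, and 0.959 (9571 genes) with DESeq2 without the third TP-3654 library. Leaving out any other library gave 0.562 to 0.593. The deposited table also lists 159 genes that the count table does not hold. The median deposited log2 fold change of the 77 genes is -0.2203. No source used here states which libraries entered that table.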
